A study of Mus musculus with 6 samples.

Results

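The Notch receptors Notch1, Notch2 and Notch3, the ligands Dll1, Dll4, Jag1 and Jag2, the DNA-binding protein Rbpj and the effectors Hes1 and Hey1 were followed in mouse intestinal organoids in which an active form of YAP was switched on. The 10 genes were taken by their mouse symbols from 24594 rows of Entrez gene IDs, and each had 1 row. RNA-seq read counts came from epithelial organoids, gel-grown structures cultured from adult crypts of the proximal small intestine. All 6 libraries carried the TetON-hYAP/H2B-mCherry transgenes, human YAP and a red fluorescent histone that doxycycline turns on, and the series' design text describes the YAP as a constitutively active S127A mutant, a change known to free YAP from an inhibitory phosphorylation. In the doxycycline group (3 libraries), the drug was given at 1 µg/ml for 48 h right after passaging, and the control group (3 libraries) had the transgenes without the drug. The medium of both groups held EGF, Noggin and R-spondin1, growth factors that sustain crypt cells. The labels give no age, sex or strain of the mice, nor the promoter that drives the doxycycline-responsive activator. No library had doxycycline without the transgene, so the drug and YAP cannot be told apart. Per the labels' protocols, adult crypts came from 1 individual per sample, but whether replicates of the organoids were separate cultures is not stated, so p-values measure only the spread between these libraries.

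Notch signalling passes between touching cells. A Delta-like or Jagged ligand on one cell pulls on a Notch receptor of its neighbour, proteases cut the receptor, and its inner part enters the nucleus, where it joins RBPJ and Mastermind proteins to switch on genes of the Hes and Hey families. In the crypt, Hes1 represses Atoh1, the transcription factor of secretory fate, and secretory cells present Dll1 and Dll4 to stem and progenitor cells that carry Notch1 and Notch2.

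With doxycycline, the Delta-like ligand gene Dll4 fell 44.6-fold, to 0.470 ± 0.145 CPM against 21.9 ± 5.58 CPM in control organoids (SD, n = 3 each). In bulk RNA, fewer cells of a type and less RNA per cell cannot be told apart. The Jagged ligand genes Jag1 and Jag2 rose 3.03-fold and 2.70-fold. The receptor gene Notch1, the DNA-binding partner Rbpj and the target gene Hes1 fell. Notch2, Notch3 and Dll1 did not pass the test, and Hey1 had too few counts for one. CPM are read counts scaled to parts per 1000000 of the library size after TMM scaling, a correction for differences in RNA composition, and rose, fell or changed is said of a gene whose adjusted p was under 0.05 in edgeR's quasi-likelihood test. Of the 9 members tested, 2 rose and 4 fell, where 21.7% of all 12909 genes tested rose, 23.6% fell and 45.3% changed in either direction. Dll4 passed edgeR's expression filter only through the control libraries and so had to differ. The median log2 fold change was -0.19 over the 9 members and -0.08 over all genes tested. With libraries left out one at a time, 7 members changed without control replicate 3, 5 without either other control and 4 without any 1 of the doxycycline libraries, with 2 higher each time. Of all genes, 9286 were called without control replicate 3, against 5850 with all libraries. For 6 of the 9, no library of either group lay within the range of the other, against 61.3% of all genes tested.

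**Figure D1:**
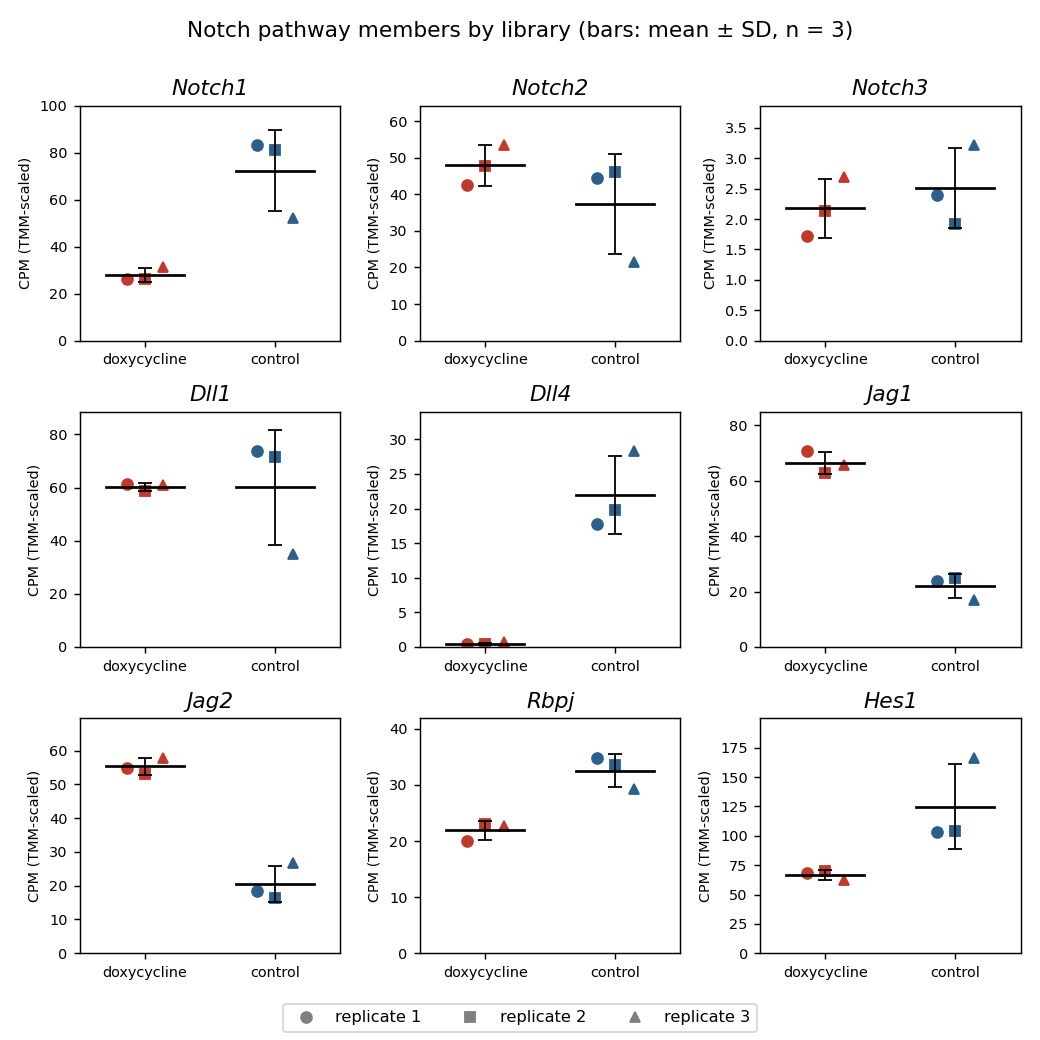
TMM-scaled CPM (vertical axes, each from 0) of the 9 tested members in the 3 doxycycline libraries (red, left) and the 3 control libraries (blue, right); symbols mark the replicate, bars the mean ± SD. All doxycycline libraries lie below all control libraries for Notch1, Dll4, Rbpj and Hes1 and above them for Jag1 and Jag2, and control replicate 3 stands away from the other controls for Notch1, Notch2, Dll1 and Hes1.

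The 6 libraries held 8533452 to 16803062 counts. Scaled by total counts, all genes tested had a median log2 fold change of -0.52, and 25.4% of those that changed rose, where TMM gave 47.9%. Control replicate 3 stood apart, with a root mean square log2 difference of 0.958 to 0.972 from the other controls over all genes tested. The other controls differed from each other by 0.315, and the doxycycline libraries by 0.363 to 0.431. The mouse Yap1 row had 142.4, 149.0 and 145.9 CPM with doxycycline and 230.6, 236.5 and 156.4 CPM in controls, and did not pass (log2 fold change -0.51, SE 0.197, edgeR adjusted p = 0.0707), though it did without control replicate 3 (-0.67, adjusted p = 1.28e-07), with total counts (-0.96, adjusted p = 0.00657) and by DESeq2 (-0.49, adjusted p = 0.0486). In its other alternatives the adjusted p was 0.0696 to 0.194. The transgene is human, so that row does not check the labels. Of 6 epithelial markers, 4 rose and none fell, where 21.7% of all genes tested rose and 23.6% fell. Their summed level was 17334 to 18557 CPM with doxycycline against 4005 to 4844 CPM in controls. The largest part was the keratin gene Krt19, with a mean of 8879 CPM with doxycycline and 1607 CPM in controls. Epcam (means of 528 CPM with doxycycline and 583 CPM in controls, edgeR adjusted p = 0.745) did not pass. Cdx2 (485 and 375 CPM, edgeR adjusted p = 0.107) did not pass either.

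The upstream sequences of 4 members are shown because they carry the largest fall (Dll4) and rise (Jag1) among the 9 tested members and the only matches to the motifs searched (Notch1, Rbpj). They are the 250 bases before the transcription start in RefSeq's GRCm38.p6 table, 5′ to 3′ on the gene's strand. Capitals mark TGGGAA, the core bound by RBPJ, and GGAATG, the core bound by the TEAD partners of YAP, searched on both strands (as TTCCCA and CATTCC where the match is on the other strand); no match of one core overlapped a match of the other. Coordinates are chr2:119325534-119325783 (plus strand) for Dll4, chr2:137116521-137116770 (minus) for Jag1, chr2:26503823-26504072 (minus) for Notch1 and chr5:53590096-53590345 (plus) for the first of the 2 listed starts of Rbpj. Both listed starts lie inside the span of Rbpj, 53555779 to 53657445, so the bases before position 53555779 were not searched.
Dll4: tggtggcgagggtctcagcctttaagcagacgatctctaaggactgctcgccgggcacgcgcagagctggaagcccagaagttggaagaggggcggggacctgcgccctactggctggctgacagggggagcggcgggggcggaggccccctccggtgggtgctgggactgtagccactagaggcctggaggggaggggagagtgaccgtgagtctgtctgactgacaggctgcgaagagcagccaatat
Jag1: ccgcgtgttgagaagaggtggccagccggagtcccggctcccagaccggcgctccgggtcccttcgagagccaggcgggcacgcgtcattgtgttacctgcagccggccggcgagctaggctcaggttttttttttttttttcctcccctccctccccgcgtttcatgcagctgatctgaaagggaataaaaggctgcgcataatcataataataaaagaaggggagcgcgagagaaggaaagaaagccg
Notch1: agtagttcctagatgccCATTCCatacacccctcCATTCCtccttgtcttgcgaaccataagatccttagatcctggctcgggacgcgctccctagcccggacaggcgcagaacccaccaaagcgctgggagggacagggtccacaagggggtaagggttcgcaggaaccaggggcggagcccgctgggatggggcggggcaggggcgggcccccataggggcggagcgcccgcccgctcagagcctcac
Rbpj: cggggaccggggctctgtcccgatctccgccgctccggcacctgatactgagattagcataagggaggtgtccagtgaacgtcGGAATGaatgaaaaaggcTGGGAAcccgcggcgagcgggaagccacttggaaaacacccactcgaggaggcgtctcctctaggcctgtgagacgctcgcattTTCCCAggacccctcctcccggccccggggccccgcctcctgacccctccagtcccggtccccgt
The table held 8 of the 10 members with 10 start sites; Hes1 and Hey1 had no entry. The RBPJ core occurred in 2 of the 10 windows, both of Rbpj and sharing 1 of the matches, and in 21.6% of all 32851 windows of the table. The TEAD core occurred in the Notch1 window, at bases -233 to -228 and -216 to -211 from the start, and in the first Rbpj window at -167 to -162, against 12.6% of all windows. A match is a run of letters and was not tested as a binding site, and no match says only that the letters are not in the window.

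Among the receptors, Notch1 (Entrez 18128, chromosome 2, 26457902 to 26503822, minus strand, GRCm38.p6) had 26.2, 26.2 and 31.5 CPM in the doxycycline libraries and 83.3, 81.1 and 52.3 CPM in the control libraries. All doxycycline libraries were below all controls, and control replicate 3 was the lowest control. The fitted log2 fold change was -1.37 with an SE of 0.223 (edgeR adjusted p = 0.00297). Notch1 kept its call under all 14 alternatives, at log2 fold changes of -1.81 to -1.25. A non-coding gene, 0610009E02Rik, overlaps the end of Notch1 and had 83, 96 and 125 counts with doxycycline and 398, 299 and 238 counts in controls; since use of strand in the counting is not given, reads of the overlap cannot be assigned to either gene.

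Notch2 (chromosome 3, 98013538 to 98150367), the other receptor of crypt progenitors, had 42.6, 47.7 and 53.6 CPM with doxycycline and 44.4, 46.2 and 21.5 CPM in controls. The groups overlapped, and the low value was that of control replicate 3. Fitted over all genes, the log2 fold change was 0.36 with an SE of 0.298 (edgeR adjusted p = 0.364), 0.10 without control replicate 3 and -0.09 when libraries were scaled by their totals. Notch3 (chromosome 17, 32120820 to 32166896), a receptor best known from vascular mural cells, was low in both groups, with 17, 23 and 38 counts in the doxycycline libraries and 41, 25 and 32 counts in the controls. The groups overlapped at 1.72 to 2.69 CPM with doxycycline and 1.92 to 3.22 CPM in controls (log2 fold change -0.19, SE 0.337, edgeR adjusted p = 0.679; 0.03 without control replicate 3). Of 10 markers of mesenchymal and mural cells, 1 passed the expression filter, Vim, which fell; it was over the filter level in all 3 controls and in 1 doxycycline library, so that its passing favoured a difference. Their summed level was 1.42 to 1.98 CPM with doxycycline and 5.23 to 7.39 CPM in controls, with Vim as the largest part. Col1a1 and Dcn had 0 counts in all 6 libraries. Under the filter, the mural gene Rgs5 had 2, 2 and 2 counts with doxycycline and 12, 26 and 8 in controls. Pdgfrb had 0 in each doxycycline library and 4, 2 and 8 in controls, and Cspg4 had 0, 4 and 2 with doxycycline and 0 in each control.

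The ratio of Notch1 to Notch2 within a library does not depend on the scaling between libraries. Counted per kilobase of exon, it was 0.681, 0.608 and 0.651 in the doxycycline libraries and 2.08, 1.94 and 2.69 in the controls, so Notch2 exceeded Notch1 in each doxycycline library and Notch1 exceeded Notch2 in each control. The ratio was 3.43-fold lower with doxycycline (log2 difference -1.78; exact two-sided permutation test over libraries, p = 0.1, the smallest p that 3 against 3 allows). Notch1 made up 36.5 to 39.3% of the summed level of the 3 receptors with doxycycline, and 64.8 to 69.2% in controls. The sum itself was 7.03 to 8.76 CPM per kilobase with doxycycline and 7.97 to 13.3 in controls, where control replicate 3 was the one within the range of the doxycycline libraries.

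**Figure D2:**
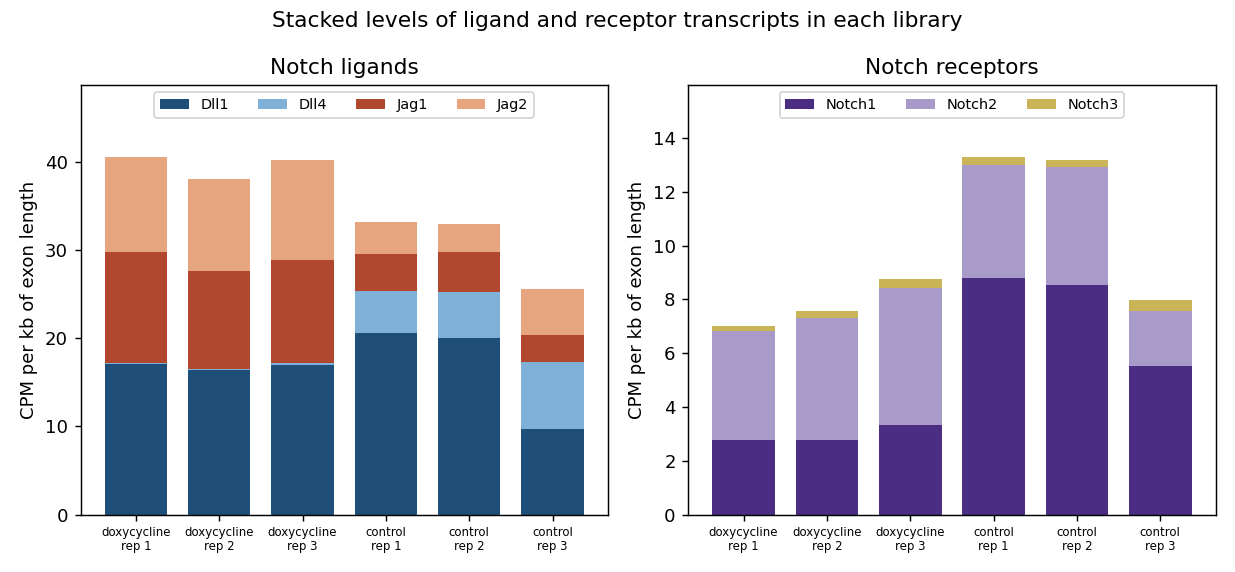
Levels of the 4 ligand transcripts (left panel) and 3 receptor transcripts (right panel) in CPM per kilobase of exon length, stacked for each of the 3 doxycycline and 3 control libraries. In the doxycycline libraries the Dll4 segment is almost gone, the Jag1 and Jag2 segments are wider than in any control, and Notch2 makes up more of the receptor stack than Notch1.

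Among the ligands, Dll4 (Entrez 54485, chromosome 2, 119325784 to 119335666, plus strand), a ligand of secretory cells in the crypt and of endothelium elsewhere, had 4, 4 and 9 counts in the doxycycline libraries and 304, 257 and 281 counts in the controls. That is 0.405, 0.370 and 0.636 CPM with doxycycline against 17.8, 19.8 and 28.3 CPM in controls, with a wide gap between the groups. The fitted log2 fold change was -5.48 with an SE of 0.347 (edgeR adjusted p = 9.62e-05), the 98th lowest of the 12909 genes tested, and -5.92 to -5.23 under the 14 alternatives, all called. A non-coding gene, Gm14207, spans the start of Dll4 (chromosome 2, 119321199 to 119326197), including the upstream window printed above. It had 4, 6 and 12 counts with doxycycline and 83, 58 and 103 counts in controls, and without knowledge of strand the reads of this overlap cannot be assigned to either gene.

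Dll1 (Entrez 13388, chromosome 17, 15367354 to 15376932), the other Delta-like ligand of the crypt, had 61.2, 58.6 and 60.8 CPM with doxycycline and 73.7, 71.6 and 34.9 CPM in controls. The doxycycline libraries lay between control replicate 3 and the other controls. Fitted over all genes, the log2 fold change was 0.00 with an SE of 0.286 (edgeR adjusted p = 0.998). Without control replicate 3 it was -0.26 and called (adjusted p = 0.0134), and with total counts as the scaling it was -0.44 and not called (adjusted p = 0.227). Over its alternatives the adjusted p of Dll1 ran from 0.0134 to 1.00.

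Jag1 (Entrez 16449, chromosome 2, 137081451 to 137116520), a ligand that also serves as a Notch target in some tissues, had 70.7, 62.8 and 65.7 CPM with doxycycline and 23.7, 25.0 and 17.0 CPM in controls. The fitted log2 fold change was 1.60 with an SE of 0.192 (edgeR adjusted p = 8.31e-04). Jag2 (Entrez 16450, chromosome 12, 112907803 to 112929812) had 55.0, 53.0 and 58.0 CPM with doxycycline and 18.5, 16.5 and 26.7 CPM in controls (log2 fold change 1.43, SE 0.214, edgeR adjusted p = 0.00210). For both genes every doxycycline library exceeded every control. Control replicate 3 was the lowest control for Jag1 and the highest for Jag2. Both rises were called under all 14 alternatives, at log2 fold changes of 1.16 to 1.70 for Jag1 and 0.99 to 1.67 for Jag2, lowest with total counts as the scaling.

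Per kilobase of exon, the summed Jagged to summed Delta-like ratio was 1.36, 1.31 and 1.34 in the doxycycline libraries, against 0.310, 0.304 and 0.477 in the controls. The Jagged level thus exceeded the Delta-like level in all doxycycline libraries and was below it in all controls. The ratio was 3.76-fold higher with doxycycline (log2 difference 1.91; exact two-sided permutation test over libraries, p = 0.1, the smallest p possible), and the log2 difference was 1.80 to 2.12 with single libraries left out. Dll4 supplied 0.260 to 0.422% of the summed ligand level with doxycycline and 14.3 to 29.5% in controls. The sum of the 4 ligands was 38.0 to 40.6 CPM per kilobase with doxycycline and 25.6 to 33.2 in controls.

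Genes that mark the cell types of the crypt changed as well. The counts of markers below stand beside 21.7% of all genes tested that rose and 23.6% that fell. Of 8 secretory fate factors, 7 were tested, of which 6 fell and none rose. The summed level of the 8 was 22.8 to 25.2 CPM with doxycycline and 671.4 to 846.2 CPM in controls. Of the 6, 4 passed the filter only through the controls, Atoh1 and Neurog3 among them, and so had to differ. Atoh1 had 0 counts in each doxycycline library, against 744, 525 and 179 counts in the controls. Neurog3, the factor of endocrine progenitors, had 0, 2 and 0 counts with doxycycline and 536, 380 and 243 counts in controls. All 9 products of Paneth and goblet cells fell (summed level 33.8 to 36.5 CPM with doxycycline against 2208 to 4470 CPM in controls), and so did all 8 crypt base stem cell genes (94.3 to 103.2 CPM with doxycycline against 4071 to 5598 CPM in controls). All controls but not all doxycycline libraries were over the filter level for 8 of the 9 Paneth and goblet genes and 3 of the 8 crypt base genes, so a difference was built into their passing and nothing is read from these counts. Of 9 enterocyte genes, 7 rose and none fell (16946 to 17744 CPM with doxycycline against 1986 to 3445 CPM in controls). The largest parts of that sum were Apoa1 (means of 6535 CPM with doxycycline and 809 CPM in controls) and Alpi (6055 and 1021 CPM). Fabp2 (51.8 and 71.3 CPM, edgeR adjusted p = 0.459) and Sis (172.5 and 91.0 CPM, edgeR adjusted p = 0.0640) did not pass. Of 6 immune markers 3 were tested and none changed (29.8 to 31.9 CPM with doxycycline against 22.9 to 45.8 CPM in controls). Most of that sum was Csf1r (means of 25.1 CPM with doxycycline and 26.8 CPM in controls). Ptprc had 0, 0 and 2 counts with doxycycline and 0 in each control. The part of these shifts in the values of the Notch genes was not tested. Of 7 endothelial markers, Kdr had 0 counts in all libraries, Cdh5 had 0 counts in all controls, and the 2 that passed the filter rose, 1 of them admitted only through the doxycycline libraries. The summed level of the 7 was 13.1 to 13.7 CPM with doxycycline and 2.63 to 8.46 CPM in controls. Most of it was Egfl7 (11.0 ± 0.589 CPM with doxycycline and 3.91 ± 2.78 CPM in controls). Pecam1, under the filter, was lower in every doxycycline library than in any control (means of 0.413 and 0.771 CPM). Tie1, also under it, had 1, 7 and 5 counts with doxycycline and 0 in each control.

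Rbpj (Entrez 19664, chromosome 5, 53555779 to 53657445, plus strand), the protein that tethers the cut receptor to DNA, had 19.9, 22.9 and 22.8 CPM with doxycycline and 34.9, 33.6 and 29.2 CPM in controls. The groups did not overlap (log2 fold change -0.57, SE 0.162, edgeR adjusted p = 0.0251). The call was lost with any single library but control replicate 3 left out (adjusted p = 0.0773 to 0.104), and without control replicate 3 the log2 fold change was -0.63 (adjusted p = 1.22e-04).

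Among the targets, Hes1 (Entrez 15205, chromosome 16, 30065357 to 30067796, plus strand), a basic helix-loop-helix repressor, had 68.4, 70.3 and 62.3 CPM with doxycycline and 103.6, 104.1 and 166.6 CPM in controls. Every doxycycline library was below every control, and control replicate 3 was the highest. Fitted over all genes, the log2 fold change was -0.90 with an SE of 0.225 (edgeR adjusted p = 0.0166). The call was lost when any doxycycline library was dropped (adjusted p = 0.0627 to 0.0797). Without control replicate 3 the log2 fold change was -0.62 (adjusted p = 2.78e-06). Hey1 (Entrez 15213, chromosome 3, 8663359 to 8667038), a related repressor prominent in vessels, had 4, 0 and 2 counts with doxycycline and 2, 2 and 0 counts in controls, which is too little for a comparison at this depth.

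Divided by exon length, the levels could be ranked across members. With doxycycline, Hes1 led at 45.6 ± 2.86 CPM per kilobase (SD, n = 3), followed by Dll1 (16.8 ± 0.40), Jag1 (11.8 ± 0.71), Jag2 (10.8 ± 0.49), Notch2 (4.56 ± 0.52), Rbpj (3.15 ± 0.24), Notch1 (2.95 ± 0.32), Notch3 (0.272 ± 0.060), Dll4 (0.125 ± 0.039) and Hey1 (0.0751). In that order the ranges over the 3 libraries overlapped between Jag1 and Jag2, between Rbpj and Notch1 and between Dll4 and Hey1. In controls, Hes1 led at 85.0 ± 24.7 CPM per kilobase (SD, n = 3), followed by Dll1 (16.8 ± 6.09), Notch1 (7.61 ± 1.82), Dll4 (5.86 ± 1.49), Rbpj (4.68 ± 0.43), Jag2 (4.02 ± 1.06), Jag1 (3.90 ± 0.76), Notch2 (3.56 ± 1.31), Notch3 (0.314 ± 0.082) and Hey1 (0.0373). There each neighbouring pair from Notch1 down to Notch2 overlapped, while Dll1 stayed above Notch1 and Notch2 above Notch3 in every library. The Jagged genes thus stood above all 3 receptors with doxycycline, while in controls they overlapped Notch2 and lay below Notch1.

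Beyond the 10 genes, a list of 69 further pathway genes was examined, of which 60 passed the expression filter. Of these, 14 rose and 16 fell, and their median log2 fold change was 0.01, against -0.08 for all genes tested. The share that changed, 30 of 60, was close to the 45.3% of all genes tested. With total counts as the scaling, 8 of the 60 rose and 22 fell, where 1747 of all 12909 genes tested rose and 5131 fell. Without control replicate 3, 22 rose and 22 fell, where 9286 of all genes were called, against 5850 with all libraries. The counts by role that follow stand beside 21.7% of all genes tested that rose and 23.6% that fell. Of the 60, 8 had all controls but not all doxycycline libraries over the filter level, and 2 the reverse. Genes named from this list are the up to 3 per role with the smallest adjusted p, from 1.28e-04 for Lfng to 0.0387 for Snw1 by edgeR.

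The enzymes that add sugars to the Notch receptors included the largest fall of the list. Lfng, a fringe enzyme that alters which ligand a receptor answers to, had 1, 4 and 9 counts in the doxycycline libraries and 453, 328 and 278 counts in the controls, or 0.369 ± 0.267 CPM with doxycycline against 26.6 ± 1.37 CPM in controls (SD, n = 3 each). The fitted log2 fold change was -6.04 with an SE of 0.419 (edgeR adjusted p = 1.28e-04). A second fringe gene, Mfng, fell at low counts, with 0, 0 and 4 counts with doxycycline and 28, 16 and 20 in controls. All of its doxycycline counts were in replicate 3, and the fitted log2 fold change over all libraries was -3.74 with an SE of 0.822. Lfng and Mfng passed the expression filter only through the controls and so had to differ. Poglut1, an O-glucosyltransferase, fell to 9.51 ± 2.12 CPM with doxycycline, against 21.6 ± 2.34 CPM in controls. In all, 1 of the 6 genes of this role rose and 3 fell.

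Among other receptors and ligands, all 3 tested genes fell, each at low levels and with all controls but not all doxycycline libraries over the filter level. Notch4 had 1.10 ± 0.112 CPM with doxycycline and 3.39 ± 0.414 CPM in controls, and the non-canonical ligand gene Dner had 0.223 ± 0.0521 CPM with doxycycline against 0.955 ± 0.0448 CPM in controls. Dll3, a ligand that restrains Notch within its own cell, had 2, 0 and 0 counts with doxycycline and 31, 15 and 15 counts in controls. The ratio of control to doxycycline was 26.6 after scaling (95% exact binomial interval 7.04 to 224, covering counting error only).

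Of 5 ubiquitin ligase genes, a role in which Mind bomb and neuralized proteins let ligand-bearing cells pull on Notch, 3 rose and none fell. Of all genes tested, 21.7% rose. Mib1 (log2 fold change 0.05, SE 0.399, edgeR adjusted p = 0.933) and Neurl1a (-0.15, SE 0.393, edgeR adjusted p = 0.782) did not pass. Neurl1b had 142.8 ± 12.8 CPM with doxycycline and 72.9 ± 11.5 CPM in controls, and Mib2 had 31.2 ± 5.09 CPM with doxycycline against 15.4 ± 1.25 CPM in controls. Neurl3, of the same neuralized family, had 627.8 ± 16.2 CPM with doxycycline against 423.9 ± 18.5 CPM in controls. Its call was lost with total counts (log2 fold change 0.12, adjusted p = 0.490) and with any library but control replicate 3 left out (adjusted p = 0.0541 to 0.0669).

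Of 10 genes for the proteases that cut the receptor, 4 rose and none fell. Aph1a, a subunit of gamma-secretase, had 58.5 ± 3.07 CPM with doxycycline and 28.5 ± 5.16 CPM in controls. Aph1c had 8.28 ± 1.69 CPM with doxycycline against 0.648 ± 0.0949 CPM in controls, but it is a close copy of Aph1b and the reads of the pair may be split between them. Aph1b also rose, with 12.9 ± 2.72 CPM with doxycycline and 3.31 ± 2.17 CPM in controls (log2 fold change 1.93, SE 0.548, edgeR adjusted p = 0.0260). Aph1c passed the filter only through the doxycycline libraries and so had to differ. Furin, which cuts the receptor on its way to the surface, had 169.3 ± 3.35 CPM with doxycycline against 89.8 ± 19.97 CPM in controls, and lost its call with total counts (adjusted p = 0.0829).

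Genes that act on receptor turnover moved both ways. Dtx4, of the Deltex ubiquitin ligases, fell to 25.9 ± 4.03 CPM with doxycycline, against 144.8 ± 20.1 CPM in controls (log2 fold change -2.48, SE 0.198, edgeR adjusted p = 1.82e-04). Nrarp, a Notch target that feeds back to limit the pathway, had 33.2, 26.0 and 26.6 CPM with doxycycline and 143.5, 137.9 and 97.3 CPM in controls. Fitted over all genes, the log2 fold change was -2.14 with an SE of 0.213 (edgeR adjusted p = 4.25e-04). Itch, a ubiquitin ligase that marks Notch for breakdown, rose (180.4 ± 7.37 CPM with doxycycline against 82.2 ± 19.3 CPM in controls). Of the 12 genes of this role, 11 were tested, of which 2 rose and 3 fell, where 45.3% of all genes tested changed.

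Among nuclear partners, Maml2, a Mastermind coactivator, rose to 13.0 ± 1.30 CPM with doxycycline, against 2.59 ± 0.761 CPM in controls. The acetyltransferase gene Kat2a had 8.67 ± 1.88 CPM with doxycycline and 38.5 ± 20.4 CPM in controls and fell by 2.15 on the log2 scale, or by 1.61 without control replicate 3. Snw1, which bridges RBPJ and the cut receptor, fell by 0.84 on the log2 scale, or by 0.49 without control replicate 3, and lost its call when any doxycycline library was dropped (adjusted p = 0.0962 to 0.139). The Groucho corepressor genes went both ways, as Tle4 rose (102.2 ± 1.87 CPM with doxycycline against 53.1 ± 9.74 CPM in controls) and Tle3 fell (39.5 ± 4.71 CPM with doxycycline against 73.7 ± 8.52 CPM in controls). Hdac2, a deacetylase of corepressor complexes, fell by 1.07 on the log2 scale; its call was lost without doxycycline replicate 2 (adjusted p = 0.0564) or 3 (0.0523). Of 8 coactivators 1 rose and 2 fell. Of 16 corepressors 15 were tested, of which 2 rose and 4 fell.

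Of 7 other genes of the Hes and Hey families, 2 passed the filter. Hes2 rose to 8.22 ± 0.513 CPM with doxycycline, against 2.83 ± 0.863 CPM in controls. Hes6, which antagonises Hes1, fell to 63.5 ± 3.64 CPM with doxycycline, against 142.3 ± 58.4 CPM in controls (log2 fold change -1.16, SE 0.287, edgeR adjusted p = 0.0155; -0.76 without control replicate 3). The call of Hes6 was lost when any doxycycline library was dropped (adjusted p = 0.0572 to 0.0688). Hes5, a classical Notch target in other tissues, was under the filter at 0, 0 and 2 counts with doxycycline and 14, 6 and 14 in controls. It was named after its values were seen. Hes3 and Hey2 had 0 counts in all 6 libraries.

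**Figure D3:**
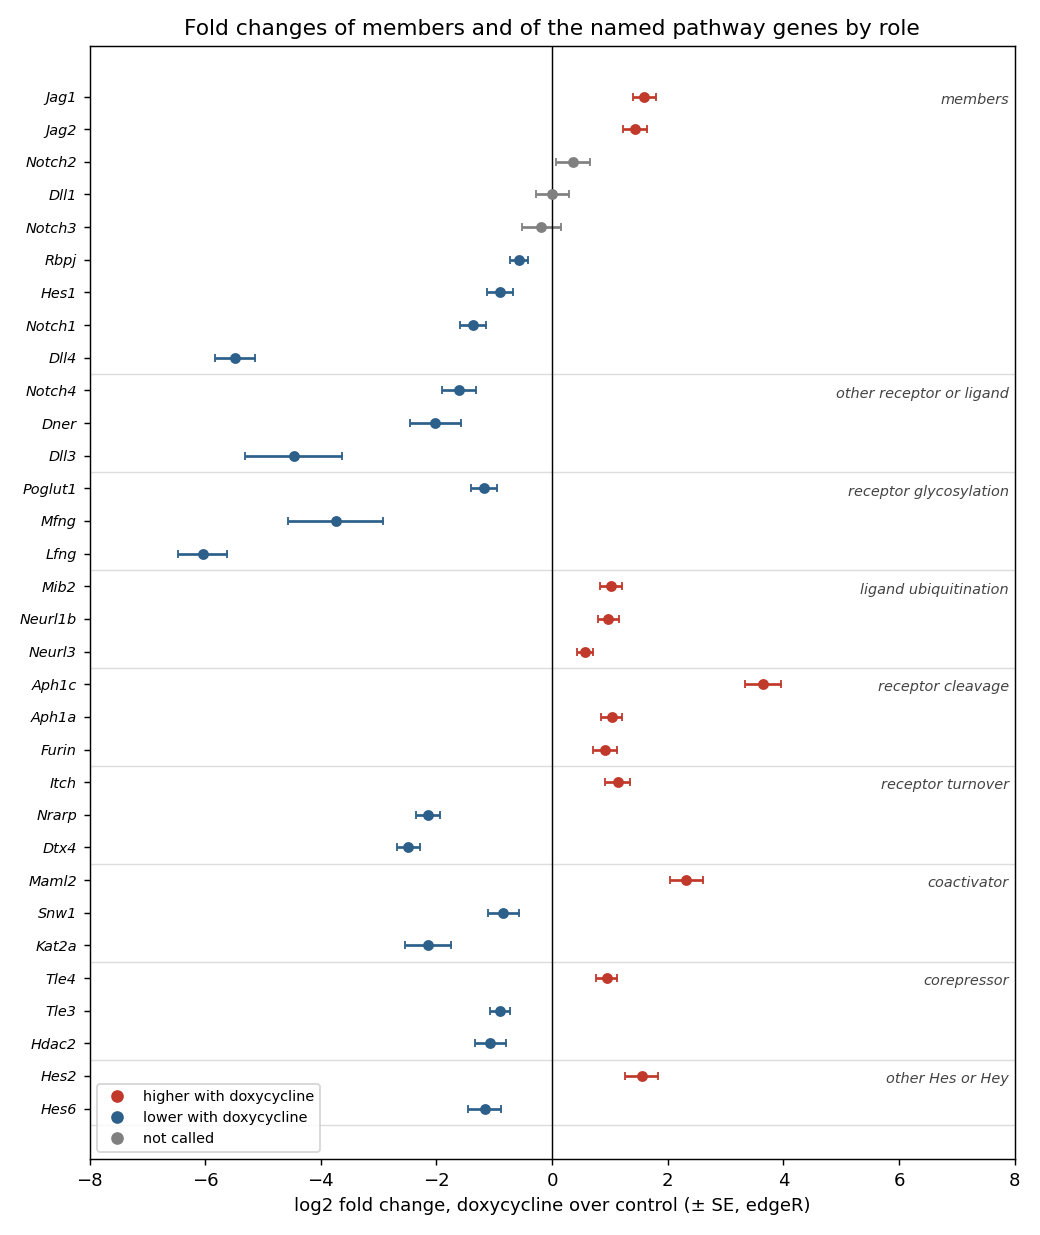
Log2 fold change, doxycycline over control (horizontal axis, ± SE from edgeR), of the 9 tested members and of up to 3 genes of each role in the wider list, in rows grouped by role. Dll4 and Lfng lie farthest to the left, and all plotted genes for ligand ubiquitination and receptor cleavage lie to the right of 0.

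The genes whose profile over the 6 libraries was most like that of 3 members were found by the root mean square difference of centred log2 CPM, over 10074 other genes whose mean reached 5 CPM. For Notch1 they were Baz1b (0.0503) and Zfp141 (0.0551), for Dll1 Ldlrad4 (0.0207) and Mob1a (0.0347), and for Hes1 Ptpa (0.0471) and Pdrg1 (0.0522). By this choice the 6 genes share with their member the step between the groups and the departure of control replicate 3. Baz1b averaged 99.9 ± 5.08 CPM with doxycycline and 257.2 ± 59.7 CPM in controls, and Ptpa 128.8 ± 4.50 CPM with doxycycline and 230.0 ± 72.5 CPM in controls. Ldlrad4, for example, had 76.9, 72.4 and 76.7 CPM with doxycycline and 89.3, 87.2 and 43.1 CPM in controls, and like Dll1 it was called lower without control replicate 3 (log2 fold change -0.21, edgeR adjusted p = 0.0280).

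**Figure D4:**
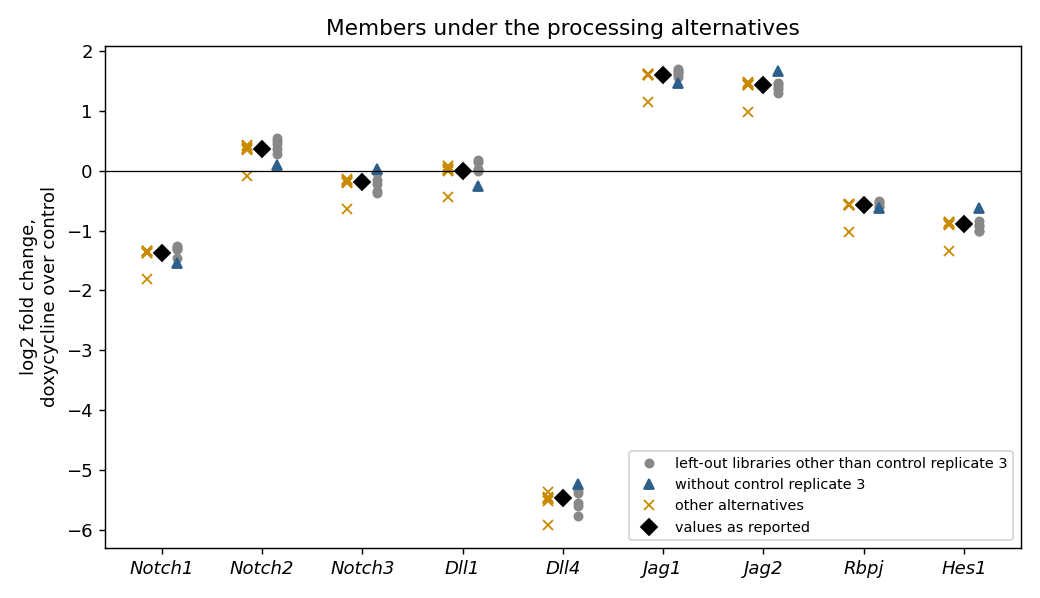
Log2 fold change, doxycycline over control (vertical axis), of the 9 tested members as reported (black diamonds), under the other scalings, filters and tests (orange crosses), without control replicate 3 (blue triangles) and without each other library (grey dots). Notch1, Dll4, Jag1, Jag2, Rbpj and Hes1 keep their side of 0 throughout, while Notch2, Notch3 and Dll1 cross it.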

How the data were processed

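The authors deposited whole-number read counts per Entrez gene ID for 6 libraries. Per the labels' protocols, RNA was taken with a column kit, made into TruSeq RNA libraries and sequenced on a NextSeq; the submitters' processing notes name the mm10 build. An aligner, counter, annotation, strand setting and filters are not given in the sources used here. RefSeq's GRCm38.p6 table gave symbols and positions for 24570 of the 24594 IDs, and merged exon lengths came from the GENCODE M21 basic annotation of the same genome. The other 24 IDs (2.88 to 4.43% of a library's counts) stayed in library sizes and tests.

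The test was edgeR 4.0.16's robust quasi-likelihood F-test in R 4.3.3, doxycycline over control, after its expression filter by group and TMM scaling; p-values of all 12909 genes tested were adjusted by Benjamini-Hochberg, at a threshold of 0.05. The SE is the log2 fold change divided by the root of F. Both ratios within a library were compared by exact permutation. As alternatives, libraries were scaled by RLE, by their totals or by TMM leaving out the 20 highest genes, the filter was dropped or set to 10 counts in 3 libraries, and DESeq2 1.42.0, limma-voom (limma 3.58.1), a replicate block and leaving out each library were tried. The test scripts were tested on simulated data.

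Genes named by rule were the 10 members and up to 3 genes of each pathway role with the smallest adjusted p. Atoh1, Neurog3, Yap1 and the 2 genes nearest in profile to Notch1, Dll1 and Hes1 were added. Marker genes are given as list sums. The markers Vim, Col1a1, Dcn, Rgs5, Pdgfrb, Cspg4, Krt19, Epcam and Cdx2 were named after their values were seen. Also named then were Apoa1, Alpi, Fabp2, Sis, Csf1r, Ptprc, Kdr, Cdh5, Egfl7, Pecam1 and Tie1. So were the overlapping non-coding genes and, of the wider list, Mib1, Neurl1a and Aph1b. The members and lists were chosen with earlier results of these data known.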

Additional observations from a re-analysis of the deposited data

How the results depend on the processing

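The count of members that changed was 6 and ran from 4 to 7, and that of the 69 wider pathway genes was 30 and ran from 20 to 44, over the 14 alternatives. With single libraries left out, 3836 to 9286 of all genes were called against 5850, highest without control replicate 3 and lowest without doxycycline replicate 3 (3862 without doxycycline replicate 2). The log2 Jagged to Delta-like difference of 1.91 ran from 1.80 to 2.12 and that of Notch1 to Notch2 of -1.78 from -1.87 to -1.64. Total counts moved the median of all genes from -0.08 to -0.52 and turned Notch2 (-0.088), Dll1 (-0.44), Ldlrad4 (-0.40) and Mob1a (-0.40), none of them called. With single libraries left out, Notch3 ran from -0.36 to 0.034, Dll1 from -0.26 to 0.18, Ldlrad4 from -0.21 to 0.21 and Mob1a from -0.23 to 0.23, each lowest without control replicate 3 except Notch3, which was highest there. The log2 change of Dll1, near 0, was -0.0032 with the filter of 10 counts and -0.00017 without doxycycline replicate 1. Of 574 other values of single genes, 525 kept direction and call, 36 lost the call, 3 gained it and 10 turned; the cause was not tested. Same-numbered libraries did not deviate together (correlations of -0.30, 0.12 and -0.19). No library correlated best with its own number, so the replicate block rests on numbers alone. With that block, 4509 genes, 4 members and 22 wider pathway genes were called, without Rbpj (edgeR adjusted p = 0.0933) and Hes1 (0.0504). The low counts of Hey1, Dll3, Mfng and, with doxycycline, Dll4 and Lfng limit their folds.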
